A study of Rattus norvegicus with 12 samples.

Results

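The 9 genes described here encode 3 ATP-gated channels (P2rx4, P2rx7, P2rx6), 2 nucleotide receptors coupled to G proteins (P2ry6, P2ry13), 3 adenosine receptors (Adora1, Adora2a, Adora3) and the ectonucleotidase CD39 (Entpd1). They were taken by gene name from a deposited table of 34525 rat genes, and each name matched 1 row. RNA sequencing had been run on 12 rat brain samples of a study of chronic orofacial pain, with 3 libraries in each of 4 groups. The groups were thalamus of CFA rats, thalamus of saline rats (0.9% NS in the labels), rostral ventral medulla (RVM) of CFA rats and RVM of saline rats. The thalamus relays sensory signals to the cortex, and the RVM is a brainstem area whose descending fibres turn pain signals up or down. In pain research on rodents CFA is the usual short form of complete Freund's adjuvant, an emulsion injected to cause lasting inflammation, but the labels hold only the letters. No source used here gives strain, age, dose, site of injection or time after treatment. Nothing in the labels says that the libraries came from separate animals, so the p-values below measure only the spread between these samples.

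Cells release ATP and other nucleotides when they are active, stressed or damaged. P2X receptors are cation channels opened by ATP, P2Y receptors respond to ATP, ADP, UTP or UDP through G proteins, and ectonucleotidases on the cell surface break nucleotides down step by step to adenosine, which acts on receptors of its own. Microglia, the resident macrophages of the brain, carry P2X4, P2X7, P2Y6, P2Y12 and P2Y13 receptors as well as CD39, and in the spinal cord several of these are studied for their part in persistent pain. Adenosine A1 receptors sit mainly on neurons, where they restrain transmitter release.

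Levels are given in FPKM, fragments scaled by the authors for gene length and library size, so that levels of different genes can be set side by side. A further scaling in the deposited values is described with the processing. The libraries held 14.94 to 19.24 M reads assigned to genes, recovered from the deposited values. Some libraries stood apart. The summed FPKM of 8 choroid plexus genes ran between 15.29 and 10320 in thalamus CFA libraries, with Ttr at 9934 in library 1, 2361 in library 2 and 5.50 in library 3, against 4.88 to 28.25 in thalamus saline libraries. The 7 thalamic markers summed to between 159.1 and 512.2 in thalamus CFA, against 399.8 to 818.8 in thalamus saline. They summed to 140.6 to 162.3 in RVM CFA and 129.7 to 164.2 in RVM saline, and thalamus CFA library 1 was the lowest of the thalamus. Calb2 makes up most of that sum in the RVM, and Tcf7l2, at 28.9 FPKM in thalamus CFA library 1 and 1.31 to 2.10 FPKM in RVM libraries, kept the library apart from the RVM, as did Lef1, Prkcd and Gbx2, while its Rora and Plekhg1 lay within the RVM range. The 14 microglial markers in the table summed to between 1098 and 1505 in thalamus CFA, against 249.3 to 290.1 in thalamus saline. In the RVM they summed to 446.0 to 1420 in CFA libraries, where library 2 was the lowest, and to 268.0 to 326.5 in saline libraries. C1qa, C1qb and C1qc make up most of the microglial sum in every CFA library of both regions. RVM CFA library 2 was also the lowest of its group in Csf1r, with 39.3 FPKM, against 92.8 and 80.3 FPKM. For members and for P2ry12, log2 changes are also given without thalamus CFA libraries 1 and 2, and calls without RVM CFA library 2. RVM CFA library 2 was singled out by its microglial sum. Fits without it are therefore no independent check for microglial markers or for genes that follow them.

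In the deposited coordinates, whose genome build no source used here gives, several of these genes lie in small clusters. P2rx4 (ENSRNOG00000001300, chromosome 12, 39308025 to 39325673) and P2rx7 (ENSRNOG00000001296, chromosome 12, 39353613 to 39396042) stand on the same minus strand with 27939 bases between them. P2ry13 (ENSRNOG00000029756, chromosome 2, 149430854 to 149432106, minus strand) is separated from P2ry12 by 9491 bases, and both lie within the span of Med12l on the plus strand. The library kit is not stated to keep strand, so reads of P2ry13 and of Med12l cannot be told apart where they overlap. P2ry6 (ENSRNOG00000019270, chromosome 1, 165972440 to 165997751, minus strand) lies between Arhgef17 and the related receptor gene P2ry2. Adora3 (ENSRNOG00000050743, chromosome 2, 208373154 to 208376803, plus strand) overlaps Tmigd3 on its own strand, which leaves the split of their reads uncertain.

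The remaining members overlap no other gene in the table. They are P2rx6 (ENSRNOG00000001873, chromosome 11, 87435185 to 87445219, plus strand), Adora1 (ENSRNOG00000003442, chromosome 13, 51042248 to 51076852, minus strand), Adora2a (ENSRNOG00000001302, chromosome 20, 14265252 to 14282873, minus strand) and Entpd1 (ENSRNOG00000014574, chromosome 1, 259739955 to 259819494, plus strand). Each value covers the whole gene and does not separate coding exons from UTRs.

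Upstream sequence from RefSeq (build GRCr8) was matched for 7 of the 9 members, all but P2ry6 and Adora2a. Promoters are shown for P2ry13, which differed between CFA and saline thalamus, and for the neighbours P2rx4 and P2rx7, which did not pass the test. Each line gives the 250 bases before the annotated start, 5′ to 3′ on the gene's own strand, at chr2:145622785-145623034 (minus strand) for P2ry13, chr12:39523090-39523339 (minus strand) for P2rx4 and chr12:39594923-39595172 (minus strand) for P2rx7. Capitals mark GAGGAA, the core letters bound by PU.1, a transcription factor of myeloid cells.

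P2ry13: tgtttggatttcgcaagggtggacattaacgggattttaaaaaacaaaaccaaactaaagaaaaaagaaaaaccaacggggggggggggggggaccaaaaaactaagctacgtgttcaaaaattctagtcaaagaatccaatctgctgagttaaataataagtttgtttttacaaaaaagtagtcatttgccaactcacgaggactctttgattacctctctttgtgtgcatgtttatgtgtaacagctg

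P2rx4: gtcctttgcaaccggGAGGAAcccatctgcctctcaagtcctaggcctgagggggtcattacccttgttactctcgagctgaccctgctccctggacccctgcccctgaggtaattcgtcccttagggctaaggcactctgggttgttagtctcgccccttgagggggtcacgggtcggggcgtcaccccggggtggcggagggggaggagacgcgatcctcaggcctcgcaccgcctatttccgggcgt

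P2rx7: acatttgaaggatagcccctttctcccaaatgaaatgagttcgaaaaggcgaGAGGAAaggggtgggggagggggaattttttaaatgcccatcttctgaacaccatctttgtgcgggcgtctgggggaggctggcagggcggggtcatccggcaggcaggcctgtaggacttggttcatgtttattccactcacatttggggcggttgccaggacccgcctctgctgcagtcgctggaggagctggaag

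Searched on both strands, GAGGAA occurred in the windows of P2rx4, beginning at base -235 relative to the start, and of P2rx7, beginning at base -198, and not in that of P2ry13. It also occurred in the windows of P2rx6 and Adora3, beginning at base -92 in each on the opposite strand, which makes 4 of 7 matched members. These letters were present in 23.3% of the 33469 rat promoters of the same length. The STAT-type letters TTCNNNGAA (7.67% of promoters) and the AP-1 letters TGANTCA (6.34%) occurred in none of the 3 windows printed, and the AP-1 letters were found in that of Adora3. A match in letters describes the sequence and does not show binding.

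The first comparison asked which of these genes differ between the thalamus of CFA and saline rats. P2ry6 and P2ry13 rose, and none of the other tested members did. P2ry6, the UDP receptor that triggers phagocytosis in microglia, had 7.99, 5.30 and 6.15 FPKM in thalamus CFA libraries, against 1.39, 1.47 and 0.956 FPKM in thalamus saline libraries. The lowest CFA library was well above the highest saline library. On the log2(FPKM + 1) scale used for all tests, P2ry6 was higher by 1.71 ± 0.18 (SE) with an adjusted p of 0.00442 by limma. A pseudocount of 1 understates changes of genes this low, and with a pseudocount of 0.1 the difference was 2.26 ± 0.24.

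P2ry13, an ADP receptor close in sequence to P2ry12, had 8.65, 10.6 and 6.49 FPKM in thalamus CFA libraries, against 3.93, 3.33 and 2.60 FPKM in thalamus saline libraries. These groups did not overlap either. The log2 change was 1.15 ± 0.20 (limma, adjusted p = 0.0304). Med12l, in whose span P2ry13 lies and which is named here after its values were seen, averaged lower in CFA, with a log2 difference of -0.42 (limma, adjusted p = 0.268).

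**Figure D1:**
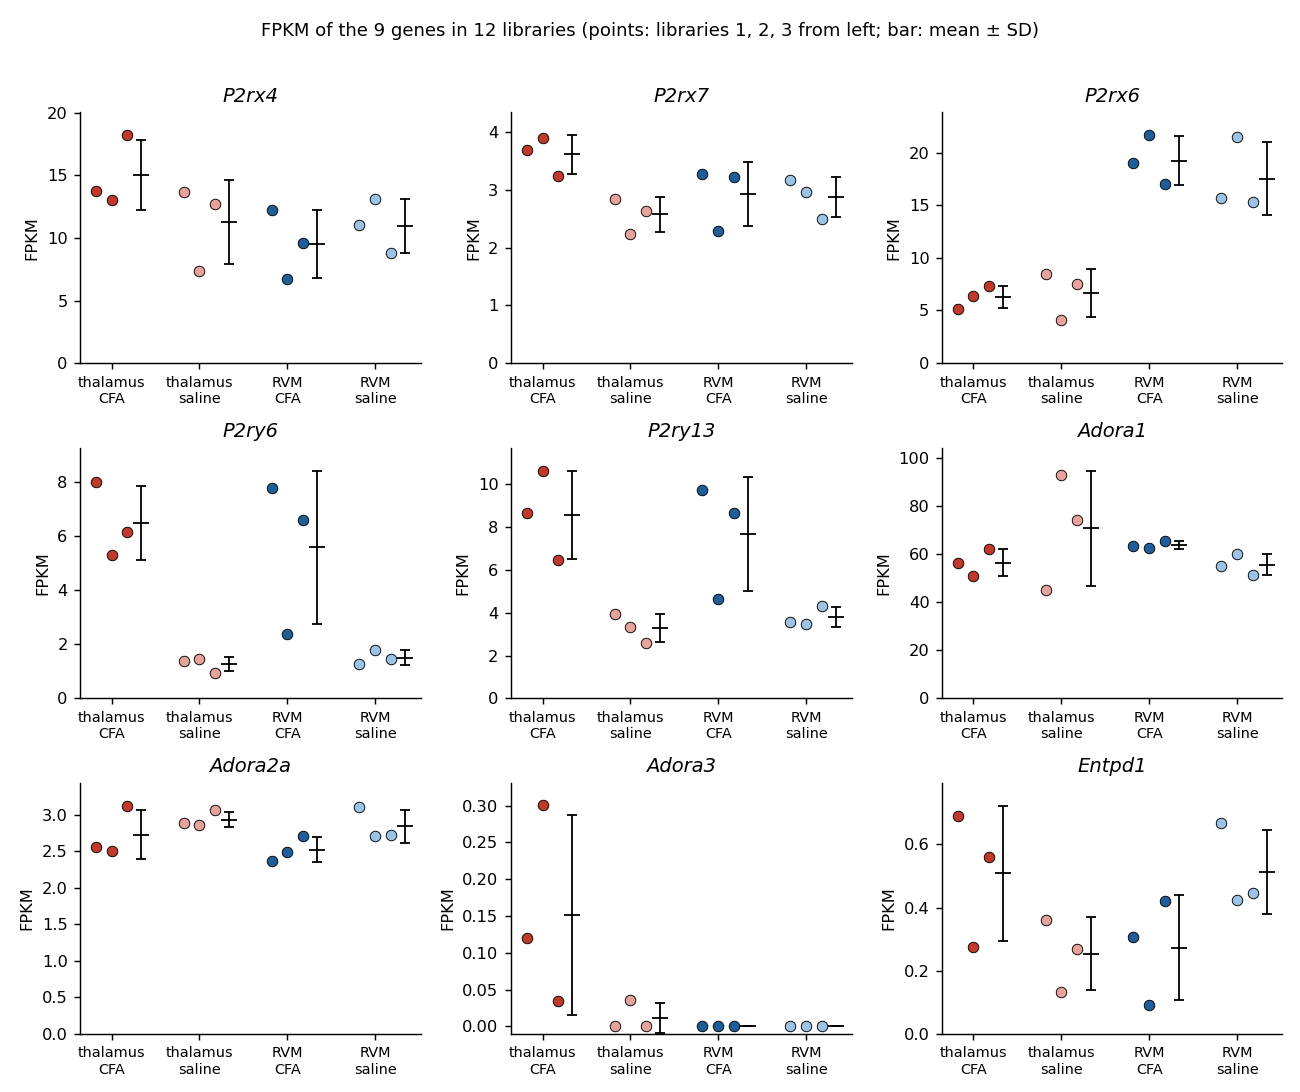
FPKM (y axis, linear, a separate scale for each gene) of the 9 genes in thalamus CFA, thalamus saline, RVM CFA and RVM saline libraries. Points are libraries 1, 2 and 3 from left to right, and the bar to their right is the mean ± SD (n = 3). P2ry6 and P2ry13 stand above saline in every thalamus CFA library and, in the RVM, are high in CFA libraries 1 and 3 and lower in library 2, while P2rx6 separates the regions and Adora1 is the most abundant member in all groups.

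Of 14722 genes tested in thalamus, 3.84% passed as higher in CFA, and 2 of the 7 tested members did. Adora3 and Entpd1 fell below the filter of a mean of 1 FPKM over the libraries compared. P2ry6 and P2ry13 would pass that filter on their saline means alone, 1.27 ± 0.275 and 3.29 ± 0.665 FPKM (SD, n = 3). Leaving out any 1 of the 6 libraries kept the P2ry6 call, with log2 changes of 1.57 to 1.83. The P2ry13 call was lost without CFA library 1 (adjusted p = 0.106), CFA library 2 (0.0783), saline library 2 (0.118) or saline library 3 (0.120), all by limma, while its log2 change stayed between 1.00 and 1.32. In the fit without CFA library 1, 394 of all 14579 tested genes passed, against 605 of 14722 with all libraries. Without CFA libraries 1 and 2 together a lone CFA library remains, so no calls are given for that fit. In it P2ry6 was higher by 1.66 and P2ry13 by 0.82. Without saline library 1 and CFA library 1 together P2ry6 passed with 1.61 (limma, adjusted p = 0.0244) and P2ry13 did not (1.24, limma, adjusted p = 0.0691).

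P2rx7, the channel that opens at high ATP and leads to release of interleukin-1β from macrophages, had 3.70, 3.90 and 3.25 FPKM in thalamus CFA libraries, against 2.84, 2.24 and 2.64 FPKM in thalamus saline libraries. The groups did not overlap, but the difference was small, 0.37 ± 0.13 on the log2 scale, and did not pass (limma, adjusted p = 0.194). With P2ry6 and P2ry13, P2rx7 made 3 of 7 members whose CFA libraries all exceeded saline, where 12.2% of all tested genes did so. P2rx4, the ATP channel that spinal microglia raise after nerve injury, had 13.8, 13.1 and 18.2 FPKM in thalamus CFA libraries, against 13.7, 7.40 and 12.7 FPKM in thalamus saline libraries. These groups overlapped, since saline library 1 lay between CFA libraries 1 and 2, and the log2 difference of 0.41 ± 0.24 did not pass (limma, adjusted p = 0.348).

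P2rx6, a subunit that works mostly in channels shared with other P2X subunits, averaged 6.29 ± 1.08 FPKM in thalamus CFA libraries and 6.69 ± 2.28 FPKM in thalamus saline libraries (SD, n = 3 each). Its log2 difference was -0.04, with a 95% interval of -0.65 to 0.57. Rescaling the libraries to equal totals turned that difference to 0.10, and the same rescaling moved the median of all genes to 0.07 from -0.08.

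Adora1, the inhibitory A1 receptor, had 56.3, 50.9 and 62.0 FPKM in thalamus CFA libraries, against 45.2, 92.7 and 74.1 FPKM in thalamus saline libraries. The spread among saline libraries covered all 3 CFA libraries, and the log2 difference of -0.26 did not pass (limma, adjusted p = 0.559). Saline library 1, the lowest in Adora1, also had the lowest thalamic marker sum of its group. Without it the difference in Adora1 was -0.55 (limma, adjusted p = 0.117). The 7 neuron markers summed to between 1008 and 1427 FPKM in thalamus CFA, against 1340 to 1809 FPKM in thalamus saline, and 0 of 7 passed. Adora2a, the adenosine receptor best known from striatal neurons, averaged 2.73 ± 0.341 FPKM in thalamus CFA libraries and 2.94 ± 0.109 FPKM in thalamus saline libraries (SD, n = 3 each). That difference, -0.08 on the log2 scale, did not pass either (limma, adjusted p = 0.730) and was 0.04 after rescaling to equal totals.

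Adora3, the A3 receptor, was close to the detection limit. It had 4, 9 and 1 reads in thalamus CFA libraries, against 0, 1 and 0 reads in thalamus saline libraries, and no read in any RVM library, where 3 reads would correspond to 0.0926 to 0.122 FPKM. Pooled over the thalamus libraries this was 14 reads in CFA and 1 read in saline, a ratio of read rates of 15.8 with an exact 95% interval of 2.40 to 668. In CFA library 3 the gene had no more reads than in saline library 2, so the ratio rests on CFA libraries 1 and 2, the pair with choroid plexus transcripts, whose part in the result was not tested.

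Entpd1, which removes phosphates from ATP and ADP to leave AMP, had 0.691, 0.274 and 0.561 FPKM in thalamus CFA libraries, against 0.362, 0.132 and 0.269 FPKM in thalamus saline libraries. The groups overlapped at these low levels, from 128 reads in CFA and 65 reads in saline, a ratio of read rates of 2.22 (exact 95% interval 1.64 to 3.04). These 2 intervals cover counting error only, not the spread between samples. With no filter all 9 members were tested in thalamus, and P2ry6 alone passed.

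The rise of both P2Y receptors ran alongside that of microglial genes. Of the 13 microglial markers tested 9 rose in CFA thalamus. Fcrl2 passed the filter only through CFA; of the other 12, 8 rose, with a median log2 change of 1.48, against -0.08 over all genes. Without CFA libraries 1 and 2, which leaves a lone CFA library, the median of these 12 was 1.54. Csf1r, the growth factor receptor of microglia and macrophages, had 98.6, 84.6 and 80.9 FPKM in thalamus CFA libraries, against 29.7, 26.9 and 25.3 FPKM in thalamus saline libraries. Tmem119, a marker of resident microglia given here after its values were seen, had 11.7, 20.8 and 14.4 FPKM in CFA, against 11.97, 14.5 and 13.9 FPKM in saline, and these groups overlapped. Of 6 monocyte and neutrophil markers tested 5 passed the filter only through their CFA values, so no count of calls is given for them. The 9 in the table summed to 601.8 to 696.3 FPKM in thalamus CFA, against 22.68 to 38.3 FPKM in thalamus saline, most of it from Lyz2, which microglia can express too, and Ly6c was listed at 0 in all libraries. The 11 lymphocyte markers summed to 14.21 to 70.2 FPKM in thalamus CFA, against 1.876 to 5.493 FPKM in thalamus saline, and 2 of them were tested. Cd4 alone had 54.0, 7.27 and 8.26 FPKM in the CFA libraries and 1.61, 4.99 and 1.45 FPKM in the saline libraries. It makes up most of the lymphocyte sum in CFA library 1. Cd8a, the other tested, had 7.39, 2.63 and 2.99 FPKM in CFA, against 0.0362, 0.135 and 0.0435 FPKM in saline. Cd8a passed the filter only through CFA. Cd79a (listed as Cd79al) was at 0 in all libraries. In such bulk tissue more cells of a type and more RNA per cell cannot be told apart, and the part of other immune cells in the receptor levels was not tested.

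**Figure D2:**
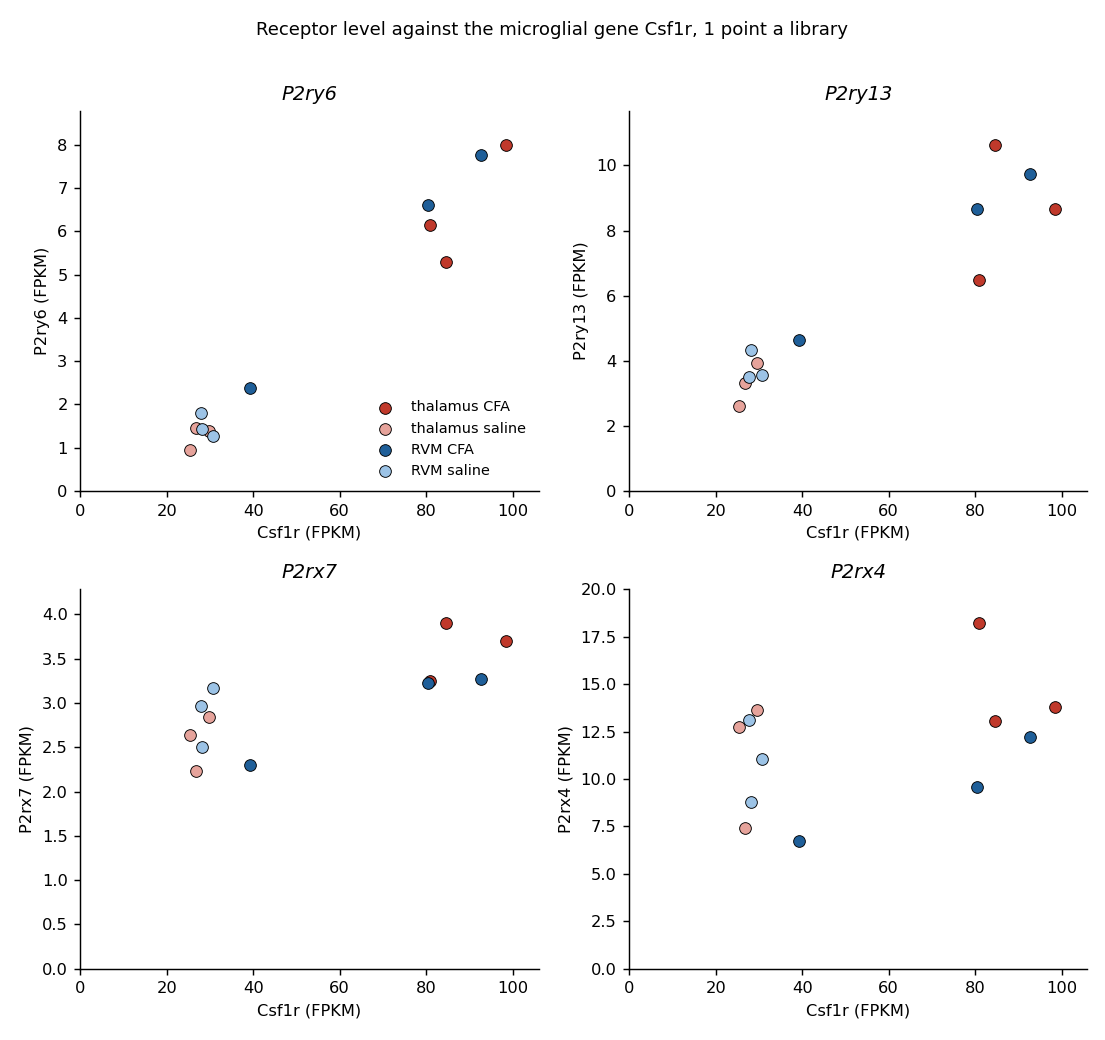
FPKM of P2ry6, P2ry13, P2rx7 and P2rx4 (y axes) against FPKM of Csf1r (x axis), 1 point for each of 12 libraries, coloured by group. For P2ry6 and P2ry13 the 3 thalamus CFA libraries and RVM CFA libraries 1 and 3 lie far right and high, and RVM CFA library 2, at 39.3 FPKM of Csf1r, lies near the saline libraries. P2rx7 spans 2.24 to 3.90 FPKM, and the P2rx4 values of libraries with high and low Csf1r overlap.

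Set against Csf1r within each library, the receptors parted. P2ry6 stood at 8.10, 6.26 and 7.61 FPKM per 100 FPKM of Csf1r in thalamus CFA libraries, against 4.67, 5.46 and 3.77 in thalamus saline libraries, higher without overlap. P2ry13 stood at 8.78, 12.6 and 8.02 per 100 FPKM of Csf1r in thalamus CFA libraries, against 13.3, 12.4 and 10.3 in thalamus saline libraries, and these overlapped, although CFA library 3, the one with few choroid plexus transcripts, lay below all saline libraries. P2rx7 averaged 4.13 ± 0.441 in CFA and 9.45 ± 1.06 in saline, and P2rx4 averaged 17.3 ± 4.56 in CFA and 41.3 ± 12.1 in saline (SD, n = 3 each, per 100 FPKM of Csf1r), both lower in CFA without overlap. For the groups that did not overlap the exact two-sided permutation p was 0.1, the smallest that 3 libraries against 3 can give. Csf1r itself rose in CFA, so this ratio falls for any gene that rises less than Csf1r. The lower ratios of P2rx7 and P2rx4 therefore say only that these genes did not rise as much as Csf1r.

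The same ratios to Cx3cr1, the fractalkine receptor gene of microglia, kept P2ry6 apart, with 16.8 ± 2.99 in thalamus CFA and 7.83 ± 1.48 in thalamus saline (SD, n = 3 each, per 100 FPKM of Cx3cr1). P2rx7 was again lower without overlap, 9.41 ± 0.543 in CFA and 15.9 ± 1.67 in saline. Cx3cr1 rose in CFA thalamus as well, so the limit given for Csf1r holds here too. P2rx4 overlapped between the groups on this scale. The higher P2ry6 ratios hold for these 2 denominators only. Tyrobp, C1qa, C1qb and C1qc rose by more than P2ry6 in CFA thalamus (log2 changes of 2.89, 2.66, 2.82 and 3.14, against 1.71). Other markers, such as Trem2 (1.30), rose by less. P2ry6 therefore did not outrun the microglial markers in general. The choice of Csf1r and Cx3cr1 as denominators was made with earlier results of these data known.

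**Figure D3:**
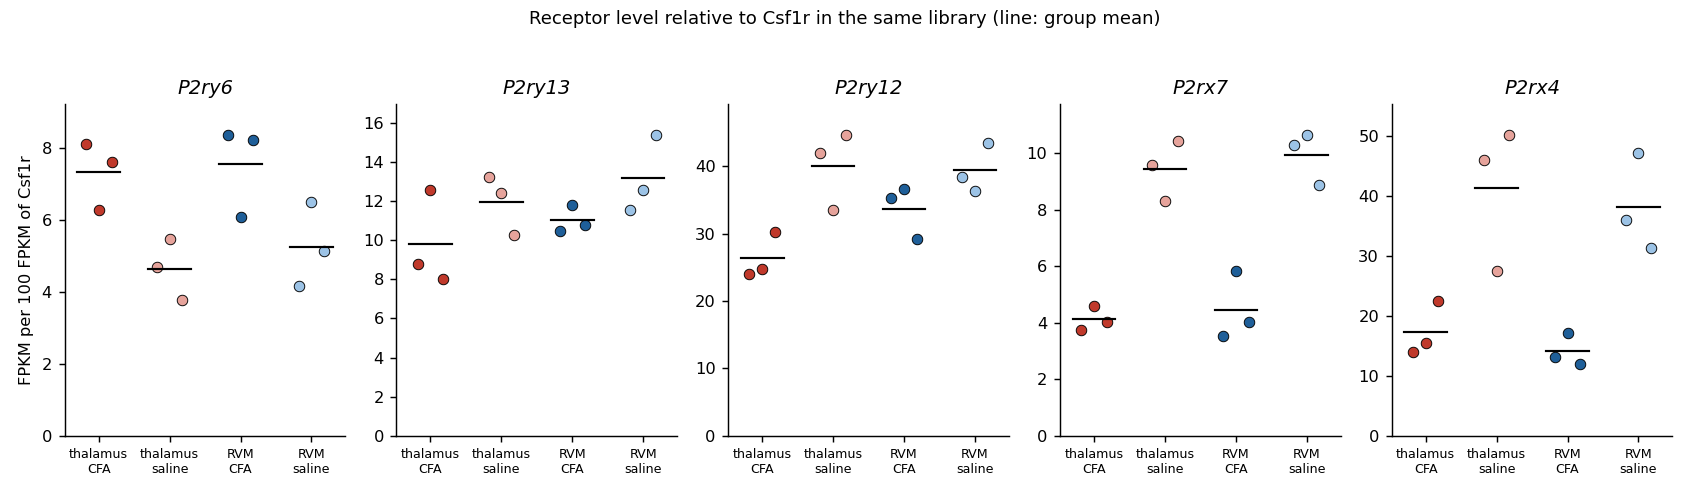
FPKM of 5 receptors per 100 FPKM of Csf1r in the same library (y axes, linear, from 0) for thalamus CFA, thalamus saline, RVM CFA and RVM saline. Points are libraries 1, 2 and 3 from left and the line is the group mean. P2ry6 is higher in thalamus CFA than in thalamus saline, P2ry13 overlaps, and P2rx7 and P2rx4 are lower in CFA without overlap in both regions. Csf1r itself is higher in every CFA library than in any saline library of its region, which lowers the ratio of a gene that rises less.

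In the RVM the question was the same, and no member passed. None of 14289 genes did (0.0%), although 2030 had an unadjusted p below 0.05, and limma-voom on the recovered reads also called 0 genes. P2ry6 had 7.76, 2.38 and 6.60 FPKM in RVM CFA libraries, against 1.28, 1.80 and 1.44 FPKM in RVM saline libraries. P2ry13 had 9.74, 4.65 and 8.67 FPKM in RVM CFA libraries, against 3.55, 3.49 and 4.33 FPKM in RVM saline libraries. Both genes were higher in every CFA library than in any saline library. Within CFA both were lowest in library 2, whose microglial marker sum (446.0 FPKM) was the lowest of its group but above all RVM saline libraries. C1qa, C1qb and C1qc make up most of that sum.

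The log2 difference was 1.28 ± 0.35 for P2ry6 (limma, unadjusted p = 0.00794, adjusted p = 0.246). For P2ry13 it was 0.81 ± 0.24 (limma, unadjusted p = 0.0122, adjusted p = 0.257). Without RVM CFA library 2 both passed, P2ry6 with 1.71 ± 0.14 (limma, adjusted p = 0.00353) and P2ry13 with 1.09 ± 0.12 (limma, adjusted p = 0.00802), and 484 of all genes passed in that fit. Of the 12 microglial markers other than Fcrl2, 0 passed in the RVM with all libraries, with a median log2 difference of 1.04. Without CFA library 2, 8 of them passed, with a median of 1.39. That library was set apart by its low sum of these same markers. P2ry6 and P2ry13 follow Csf1r over the libraries, so none of the passes without it is independent support.

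**Figure D4:**
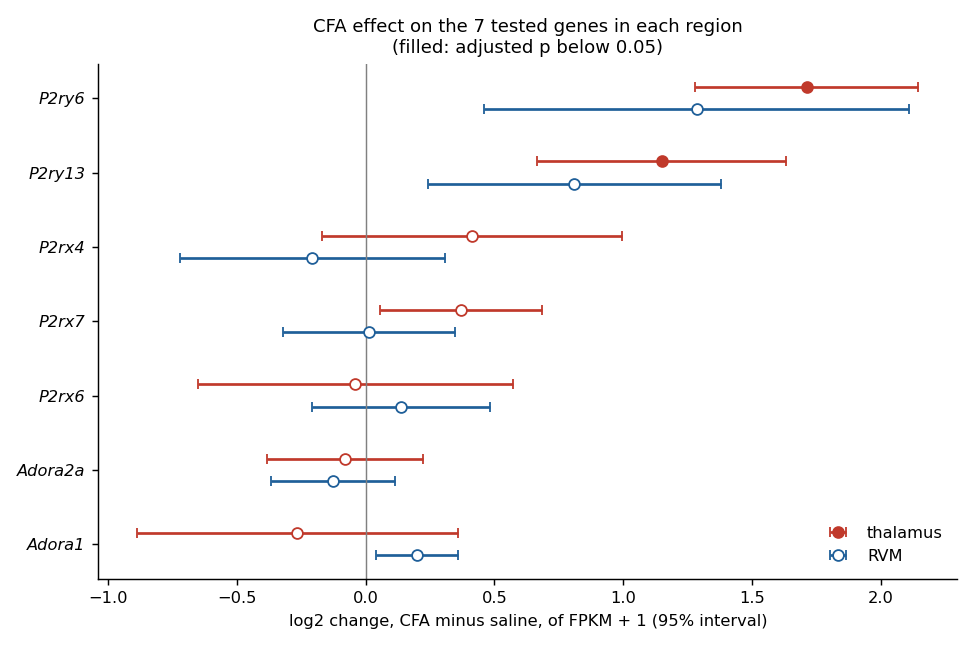
Log2 change of FPKM + 1, CFA minus saline (x axis), of the 7 tested members in thalamus (red, upper of each pair) and RVM (blue, lower), with limma's unadjusted 95% interval; filled points passed an adjusted p of 0.05. Only P2ry6 (1.71) and P2ry13 (1.15) in thalamus are filled, and the intervals of the regions overlap for each gene.

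Adora1 had 63.4, 62.5 and 65.3 FPKM in RVM CFA libraries, against 55.1, 60.0 and 51.3 FPKM in RVM saline libraries. This was a separation by a small step, 0.20 ± 0.07 on the log2 scale, that did not pass (limma, adjusted p = 0.278). P2ry6, P2ry13 and Adora1 made 3 of 7 members higher without overlap, against 7.27% of all tested genes. Adora2a had 2.37, 2.50 and 2.71 FPKM in RVM CFA libraries, against 3.11, 2.71 and 2.72 FPKM in RVM saline libraries, just lower without overlap at the third digit. It was 1 of 7 members so placed, against 12.5% of genes, and its log2 difference of -0.13 did not pass (limma, adjusted p = 0.631).

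None of the P2X genes passed in the RVM. P2rx4 averaged 9.52 ± 2.74 FPKM in CFA and 10.99 ± 2.16 FPKM in saline, and P2rx7 averaged 2.93 ± 0.549 FPKM in CFA and 2.88 ± 0.345 FPKM in saline (SD, n = 3 each). Their log2 differences were -0.21 (95% interval -0.72 to 0.31) and 0.01 (-0.32 to 0.35). P2rx6 averaged 19.2 ± 2.31 FPKM in CFA and 17.5 ± 3.47 FPKM in saline, a log2 difference of 0.14 (-0.21 to 0.48). Relative to Csf1r the first pair was lower in CFA without overlap here too. Csf1r itself was higher in every RVM CFA library than in any RVM saline library, so the same limit holds. P2rx4 stood at 14.1 ± 2.72 in CFA and 38.1 ± 8.15 in saline, and P2rx7 at 4.46 ± 1.22 in CFA and 9.95 ± 0.946 in saline (SD, n = 3 each, per 100 FPKM of Csf1r). Each of these had an exact two-sided permutation p of 0.1. P2ry6 stood at 8.37, 6.07 and 8.22 per 100 FPKM of Csf1r in RVM CFA libraries, against 4.15, 6.48 and 5.13 in RVM saline libraries, and overlapped (exact two-sided permutation p = 0.2).

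Entpd1 had 0.305, 0.0922 and 0.420 FPKM in RVM CFA libraries, against 0.667, 0.425 and 0.447 FPKM in RVM saline libraries. In pooled reads this was 67 in CFA and 114 in saline, a ratio of read rates of 0.534 (exact 95% interval 0.389 to 0.729, counting error only), whereas the thalamus ratio was above 1. That contrast between the regions was not tested.

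Whether CFA acted differently on these genes in thalamus and RVM was tested as the interaction of region and treatment over all 12 libraries. No member passed, and no gene of 13738 did (0.0%), with 1560 at an unadjusted p below 0.05 and 0 calls by limma-voom. The CFA effect on P2ry6 was larger in thalamus than in RVM by 0.43 on the log2 scale, with a 95% interval of -0.51 to 1.37 (limma, adjusted p = 0.677). For P2ry13 the difference of effects was 0.34 (-0.41 to 1.09), for P2rx4 it was 0.62 (-0.16 to 1.40), and for Adora1 it was -0.46 (-1.09 to 0.17). These intervals are wide enough to include both no difference and a difference of more than 1 log2 unit for each of the 4 genes. Without RVM CFA library 2 the difference of effects was 0.0048 for P2ry6 and 0.06 for P2ry13 (limma, adjusted p = 0.996 and 0.952), and 0 genes passed. That library was picked for its low microglial sum, so these smaller differences are no independent result.

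Between the regions without CFA, 1 of the 7 tested members differed. P2rx6 had 8.44, 4.12 and 7.51 FPKM in thalamus saline libraries, against 15.7, 21.5 and 15.3 FPKM in RVM saline libraries. The log2 difference was -1.30 ± 0.25 (limma, adjusted p = 0.00664), lower in thalamus, and it passed without any 1 of the 6 libraries, at -1.47 to -1.03. Among all 14396 genes 22.7% were lower in thalamus and 45.3% differed in either direction, so 1 of 7 is a smaller share than that of the table as a whole. Markers of whole cell classes also differed between the regions. The 6 oligodendrocyte markers were all lower in thalamus, with sums of 4688 to 7323 FPKM in thalamus saline and 22320 to 25360 FPKM in RVM saline, and the part of these cells in the P2rx6 difference was not tested. The 7 neuron markers went both ways, with 3 higher and 4 lower in thalamus. P2rx5, another P2X subunit gene and no member, had 0.776, 1.48 and 1.41 FPKM in thalamus saline libraries, against 3.88, 4.91 and 4.30 FPKM in RVM saline libraries (log2 difference -1.28, limma, adjusted p = 0.00158).

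The other 6 tested members overlapped between the saline libraries of the regions. P2rx4 averaged 11.3 ± 3.37 FPKM in thalamus saline and 10.99 ± 2.16 FPKM in RVM saline (SD, n = 3 each), a log2 difference of 0.01 (95% interval -0.57 to 0.58). P2ry6 averaged 1.27 ± 0.275 FPKM in thalamus saline and 1.51 ± 0.268 FPKM in RVM saline, with an interval of -0.54 to 0.25. P2ry13 averaged 3.29 ± 0.665 FPKM in thalamus saline and 3.79 ± 0.472 FPKM in RVM saline, with an interval of -0.52 to 0.19. None of these passed, and neither did Csf1r, which differed by -0.08 (limma, adjusted p = 0.457). Adora1 averaged 70.7 ± 24.0 FPKM in thalamus saline and 55.5 ± 4.34 FPKM in RVM saline and did not pass (log2 difference 0.29, limma, adjusted p = 0.376). Without thalamus saline library 1 it was higher in thalamus by 0.57 (limma, adjusted p = 0.00811), the only 1 of 12 alternatives in which it passed. That library had the lowest Adora1 of its group (45.2 FPKM, against 92.7 and 74.1 FPKM). Leaving it out raises the thalamus mean and narrows its spread, so this pass is no independent support.

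In order of level, Adora1 was the highest member in all 4 groups, with no overlap with the next gene. P2rx4 followed in the thalamus and P2rx6 in the RVM. In thalamus CFA the order went on with P2ry13 at 8.58 ± 2.06, P2ry6 at 6.48 ± 1.37 and P2rx6 at 6.29 ± 1.08 FPKM (SD, n = 3), each overlapping the next, and then P2rx7 and Adora2a. In thalamus saline P2ry13 overlapped Adora2a, and P2ry6 ranked below P2rx7 without overlap. Entpd1 and Adora3 closed the order in each group.

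By the correlation of log2(FPKM + 1) over the 12 libraries, the genes most like P2ry6 among 12541 were Tnfaip8l2, which restrains immune signalling, Fcer1g, the signalling chain of Fc receptors, and Sipa1, a Rap GTPase activator, with Pearson's r of 0.993, 0.990 and 0.989. Those most like P2ry13 were Psmb9, a subunit of the immunoproteasome, Gpr84, a fatty acid receptor of myeloid cells, and Irgm, an interferon-inducible GTPase, with r of 0.984, 0.980 and 0.977. P2ry6 and P2ry13 had r of 0.941 with each other, and of 0.986 and 0.957 with Csf1r. These values are descriptions of libraries that fall into a high and a low cluster for immune genes, and they share depth and tissue.

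The other receptors had different companions. P2rx7 had r of 0.761 with Csf1r and P2rx4 had 0.383, and their leading genes included Tmem123 and Fxyd2 (0.896 and 0.880) for P2rx7 and were Asic4, Nt5c and Grhpr (0.841, 0.837 and 0.814) for P2rx4. P2rx6, which separates the regions, was closest to Rab5if, Metap2 and Rassf8 (0.983, 0.980 and 0.978). Adora1 was closest to Mybph (0.949), whose gene lies 346 bases from it in the deposited coordinates, so a sharing of reads near their ends was not tested; Pi4k2a (0.891) and Fam192a (0.890) came next. Adora2a had Pcid2, Inpp5e and the entry RF02271 (0.811, 0.792 and 0.783), and its r with Csf1r was -0.482.

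The wider purinergic system was read through 7 lists holding 50 genes of the table, 41 of them no members. Of 36 tested in thalamus, 4 rose and 0 fell, where 3.84% of all tested genes rose and 0.272% fell. The 4 were P2ry6, P2ry13, P2ry12 and Enpp3, so that 2 of the 29 genes that are no members rose, and Enpp3 passed the filter only through its CFA values. By list, 3 of 5 tested P2Y receptors rose, while 0 of 5 P2X receptors and 0 of 3 adenosine receptors passed, with medians of -0.04 and -0.08.

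P2ry12, the ADP receptor that steers microglial processes, had 23.6, 20.9 and 24.4 FPKM in thalamus CFA libraries, against 12.4, 8.996 and 11.3 FPKM in thalamus saline libraries (log2 change 1.02 ± 0.14, limma, adjusted p = 0.0107). Its call was lost without saline library 3 (limma, adjusted p = 0.0535) and without CFA libraries 1 and 2 together (limma, adjusted p = 0.187). Relative to Csf1r it was lower in CFA without overlap, 26.3 ± 3.39 in CFA and 40.0 ± 5.84 in saline (SD, n = 3 each, per 100 FPKM of Csf1r; exact two-sided permutation p = 0.1). Relative to Cx3cr1 the groups overlapped, 60.3 ± 9.88 in CFA and 67.5 ± 9.44 in saline (SD, n = 3 each, per 100 FPKM of Cx3cr1; exact two-sided permutation p = 0.4), and in the RVM they overlapped for both denominators. Enpp3, an enzyme that splits extracellular nucleotides, had 3.14, 2.29 and 2.61 FPKM in thalamus CFA libraries, against 0.853, 0.270 and 0.393 FPKM in thalamus saline libraries (log2 change 1.30 ± 0.21, limma, adjusted p = 0.0211). Its call held in only 1 of the 6 fits without a single library, the one without saline library 1.

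**Figure D5:**
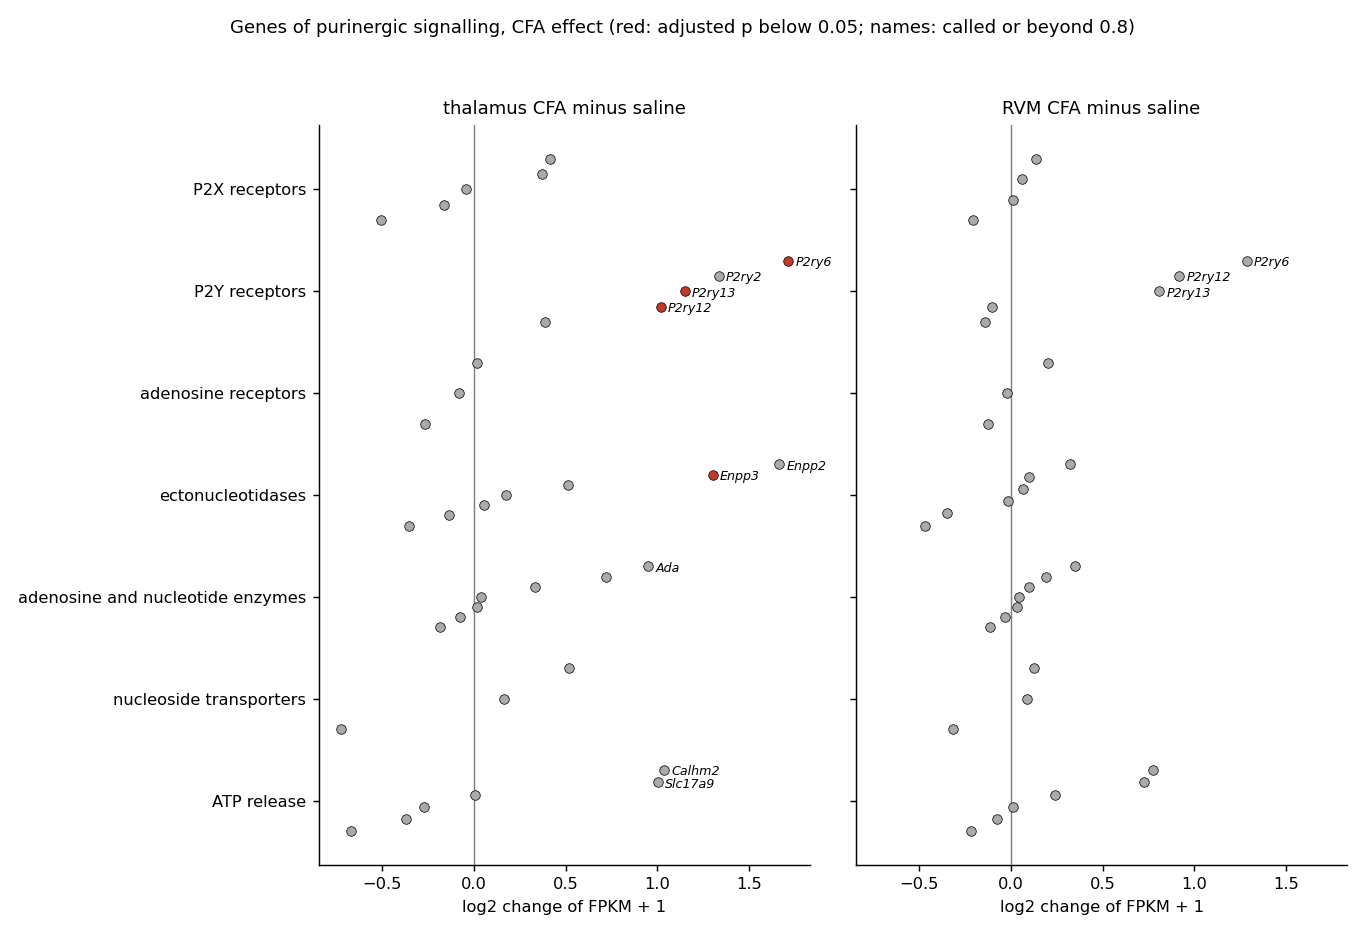
Log2 change of FPKM + 1, CFA minus saline (x axis), of each tested gene of 7 purinergic lists (rows) in thalamus (left) and RVM (right). Red points passed an adjusted p of 0.05, and names are given for these and for changes beyond 0.8; in thalamus P2ry6, P2ry13, P2ry12 and Enpp3 are red, in RVM none is, and no P2X or adenosine receptor is red in either.

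Other thalamic differences in the pathway did not pass. Enpp2, which encodes autotaxin and is abundant in choroid plexus, had 653.5, 214.8 and 47.3 FPKM in thalamus CFA libraries, against 58.3, 50.8 and 68.7 FPKM in thalamus saline libraries, in the order of the choroid plexus transcripts. Slc17a9, the vesicular ATP transporter, is named after its values were seen, since it missed the threshold by little (log2 difference 1.00, limma, adjusted p = 0.05002). P2ry2, the ATP and UTP receptor gene beside P2ry6, had 3.38, 1.79 and 3.38 FPKM in thalamus CFA libraries, against 0.981, 0.250 and 0.347 FPKM in thalamus saline libraries (log2 difference 1.34, limma, adjusted p = 0.0553), and like Enpp3 it passed the filter only through CFA.

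In the RVM 0 of 34 tested pathway genes passed, and the smallest p values belonged to Enpp2, P2ry6 and Panx2. Enpp2 had 145.6, 155.7 and 130.6 FPKM in RVM CFA libraries, against 186.7, 197.0 and 213.8 FPKM in RVM saline libraries (log2 difference -0.47, limma, adjusted p = 0.242). Panx2, a pannexin gene, differed by 0.24 on the log2 scale (limma, adjusted p = 0.254). P2ry12 had 32.7, 14.4 and 23.4 FPKM in RVM CFA libraries, against 11.8, 10.1 and 12.2 FPKM in RVM saline libraries, with CFA library 2 again the lowest of its group (log2 difference 0.92, limma, adjusted p = 0.254). Without that library P2ry12 was higher by 1.22 ± 0.15 (limma, adjusted p = 0.0139), in a fit that carries the limit given above.

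For the interaction 0 of 34 passed as well, with the smallest p for P2ry2 (1.48, limma, adjusted p = 0.337), Ada, which deaminates adenosine (0.76, limma, adjusted p = 0.392), and the lysosomal nucleoside transporter gene Slc29a3 (0.39, limma, adjusted p = 0.426), all as log2 differences of effects. Between thalamus and RVM in saline 13 of 33 pathway genes differed, 3 higher and 10 lower in thalamus. Of all tested genes 45.3% differed, 22.6% higher and 22.7% lower in thalamus. Enpp2 (log2 difference -1.74) and Slc29a3 (-0.62) had the smallest adjusted p, 0.000195 and 0.00114 by limma.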

How the data were processed

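Total RNA had been sequenced from libraries made with an Illumina TruSeq kit after Trizol extraction, per the labels' protocols, which also speak of retinas although all samples are labelled thalamus or RVM. The authors deposited 1 table of FPKM per gene and library, with gene lengths and coordinates, per the file headers; no source used here gives the aligner, counting tool or genome build. FPKM times gene length was a whole multiple of 1 step in each library for 100% of values (tolerance 0.01), which gave the reads. The authors' library total differed from these reads by a factor of 0.9335 to 1.168, highest in thalamus CFA (1.109 to 1.168). The deposited FPKM of every library therefore carries a further scaling.

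Tests used limma 3.58.1 in R 4.3.3 (empirical Bayes with trend) on log2(FPKM + 1), for genes averaging 1 FPKM or more across the compared libraries (in each region for the interaction), with Benjamini-Hochberg adjustment over all genes and calls at an adjusted p below 0.05. The steps were tested on simulated data. Count models were not used because the deposited unit is FPKM; limma-voom on recovered reads was an alternative, with other pseudocounts, filters, scalings, a block, a joint model and left-out libraries. Intervals of read ratios are exact and cover counting error only. A gene with 0 reads was allowed up to 3.

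Members, gene lists and alternatives were chosen with earlier results of these data known; the alternatives for P2ry12, Enpp3 and the microglial markers were added after seeing the data. Named were all 9 members, pathway genes called in a CFA comparison, the 3 with the smallest p in each comparison and the 3 most correlated genes per member; others are marked as chosen after their values were seen. Of 147 listed symbols 140 matched by name, 2 by synonym and 4 not at all, and 1 repeated another. One gene named by the likeness rule is not reported here.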

Additional observations from a re-analysis of the deposited data

How the results depend on the processing

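Over the alternatives, 390 of 420 member values kept their direction and side of the threshold, 8 kept the direction and lost the call, 3 gained one and 19 turned sign, all of the last for differences that had not passed. In thalamus 2 members passed, 1 with no filter on low values, 1 without saline 1 and CFA 1, and 1 to 2 without a single library. In RVM the count was 0, and 0 to 2 without a single library, the 2 coming without CFA library 2. Between regions in saline it was 1, and 1 to 2 without a single library, the 2 coming without thalamus saline library 1. The interaction gave 0 in all 20 alternatives.

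Signs turned as follows. P2rx6 in thalamus (-0.04) gave 0.10 with equal totals, 0.17 without CFA 1 and 2, 0.25 without saline 1 and CFA 1, and -0.31 to 0.13 without a single library. Adora2a in thalamus (-0.08) gave 0.043 with equal totals and 0.0672 without CFA 1 and 2. For the interaction P2rx6 (-0.18) gave 0.0296 without CFA 1 and 2 and 0.11 without saline 1 and CFA 1, and Adora2a (0.05) gave -0.029 to 0.0875 without a single library. P2rx7 ran from -0.0598 to 0.135 in RVM without a single library, and in the region comparison (-0.12) gave 0.0181 with equal totals. P2rx4 ran from -0.14 to 0.26 in the region comparison without a single library. The cause was not tested.

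Equal totals shifted the median log2 difference of all genes to 0.07 in thalamus and 0.14 between regions, from -0.08 and -0.02. The labels give no pairing of libraries by number. Same-numbered CFA and saline libraries correlated at 0.358, 0.057 and 0.267 in thalamus and -0.027, 0.001 and -0.008 in RVM. In thalamus CFA libraries 1 and 2 correlated best with the saline library of their own number, and CFA library 3 with saline library 2. In RVM no CFA library correlated best with its own number. Whether a number marks a shared batch in thalamus was not tested. With the replicate block 2 members passed in thalamus, 0 in RVM, 0 for the interaction and 1 between regions, and 1338 genes in all passed in thalamus, against 605 without it. At this depth Adora3 and Entpd1 are limited by their few reads.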

Other observations

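Entpd1 was lowest in the library numbered 2 in each of the 4 groups, with 0.274 FPKM in thalamus CFA, 0.132 in thalamus saline, 0.0922 in RVM CFA and 0.425 in RVM saline. P2rx4 was lowest in library 2 in thalamus CFA, thalamus saline and RVM CFA (13.1, 7.40 and 6.74 FPKM) and highest there in RVM saline (13.1 FPKM). The labels do not say that a number marks a shared animal or day.

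Calhm2, a channel gene of the ATP release list chosen here after its values were seen, had 7.33, 2.28 and 2.93 FPKM in thalamus CFA libraries, against 2.75, 0.783 and 0.858 FPKM in thalamus saline libraries. In the RVM it had 3.54, 1.16 and 2.85 FPKM in CFA libraries, against 1.42, 0.822 and 0.725 FPKM in saline libraries. It passed in neither region (limma, adjusted p = 0.243 and 0.320).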
